A study of Mus musculus with 49 samples.

Results

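The Hoxa cluster genes are 9 of the 38253 genes in a table of FPKM values (fragments mapped to a transcript, scaled by its length and by the fragments mapped in the sample) from mouse normal blood progenitors and MLL-AF9 leukaemias. They were chosen by name: the rows whose Ensembl identifier carries the symbol Hoxa2, Hoxa3, Hoxa4, Hoxa5, Hoxa6, Hoxa7, Hoxa9, Hoxa10 or Hoxa11 in the GENCODE M1 annotation. The study asked how the cell in which a leukaemia begins shapes it, and 49 samples in 10 groups were used. All were labelled C57BL/6J, genotype WT, 6 to 12 weeks of age. Normal cells came from sorted bone marrow. The most immature were the LT-HSC (5 samples), stem cells that rebuild blood over the long term, the ST-HSC (5 samples), which do so for a shorter time, and the MPP (6 samples), which are multipotent but renew little. The committed ones were the CMP (5 samples), common to the myeloid lineages, the GMP (5 samples), which give granulocytes and macrophages, and the MEP (4 samples), which give platelets and red cells. The leukaemias were named for the normal cell that had been transduced with a retrovirus carrying the MLL-AF9 fusion (MA9) and green fluorescent protein. There were 3 samples of STHSC:MA9 and 4 of CMP:MA9, and MPP:MA9 and GMP:MA9 had 6 each. According to the methods of the study, transduced cells were injected into sublethally irradiated recipients and fluorescent cells were sorted from the spleen, whereas the labels give bone marrow for every sample. Transduction and passage through a recipient, and by those methods the tissue, differed between every leukaemia and every normal group and cannot be told apart from transformation. Each leukaemia group was a set of bulk leukaemias, and in bulk samples fewer cells of a type and less RNA per cell cannot be told apart.

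Hox genes encode homeodomain transcription factors that lie in 4 clusters, and their order along the chromosome follows their order of use along the body axis of the embryo. In adult bone marrow, genes in the middle and at the 5′ side of the Hoxa cluster are active in stem and early progenitor cells and are shut down as cells mature. MLL is a histone methyltransferase that keeps these genes active, and fusions of MLL with partners such as AF9 recruit the DOT1L elongation machinery to them. Hoxa9, with its cofactor Meis1, is among the best known targets of such fusions in acute leukaemia.

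Messages of the sort markers followed the gates in part. Slamf1, which encodes CD150, was at 4.94 to 17.03 FPKM in LT-HSC and at 0.07 to 0.30 FPKM in MPP, but at 2.19 to 3.99 FPKM in CMP, which were gated as CD150-. Fcgr3, which encodes an Fcγ receptor, was at 129.61 to 189.54 FPKM in GMP against 1.87 to 9.98 FPKM in CMP, and reached 87.14 FPKM in LT-HSC. Granulocyte markers stood apart in some stem cell libraries: their summed level over 8 genes was 74479 and 30097 FPKM in LT-HSC replicates 4 and 5 against 21.9 to 40.7 in the other LT-HSC samples, and 42420 and 8744 FPKM in ST-HSC replicates 4 and 5 against 51.4 to 1210 in the other ST-HSC samples. The granulocyte sum was also at 1709 to 11369 FPKM in GMP and at 998 to 51973 in the leukaemias. Summed erythroid markers reached 61031 FPKM in LT-HSC and 33193 in ST-HSC, and B cell markers 164 in LT-HSC, 127 in MEP and 96.9 in ST-HSC. Stroma and endothelium markers reached 20.6 FPKM in LT-HSC, 66.8 in ST-HSC and 131 in GMP:MA9. T cell markers stayed at or below 18.2 FPKM in every group, megakaryocyte markers were highest in ST-HSC at up to 1337 FPKM, and monocyte and macrophage markers were at 702 to 2189 FPKM in the leukaemias and 1296 to 2183 FPKM in GMP. Their part in the Hoxa values was not tested, and results for LT-HSC and ST-HSC are given with and without those 4 libraries where this changed a call.

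All 9 genes lie on the minus strand of chromosome 6 (NCBIM37, the Ensembl name of mm9), from Hoxa2 (ENSMUSG00000014704, chr6:52112350-52115412) to Hoxa11 (ENSMUSG00000038210, chr6:52192107-52196213), with Hoxa13 beyond. Level was highest at Hoxa7 (ENSMUSG00000038236, chr6:52164490-52171853) and Hoxa9 (ENSMUSG00000038227, chr6:52173099-52181088). These genes made up 65.4% ± 11.5 (SD, n = 30) of the summed FPKM of the cluster in normal samples and 57.9% ± 4.72 (SD, n = 19) in leukaemias. Hoxa10 (ENSMUSG00000000938, chr6:52181196-52190853) came next in the leukaemias. Hoxa3, Hoxa5 and Hoxa6 lay at intermediate levels, and Hoxa2 and Hoxa4 were low. Hoxa11 was listed at 0 in all 30 normal samples. The summed FPKM of the 9 genes ran from 7.91 to 11.1 in GMP, from 5.00 to 8.97 in MEP and from 54.5 to 71.1 in MPP, and from 52.0 to 144 over the 19 leukaemias.

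**Figure D1:**
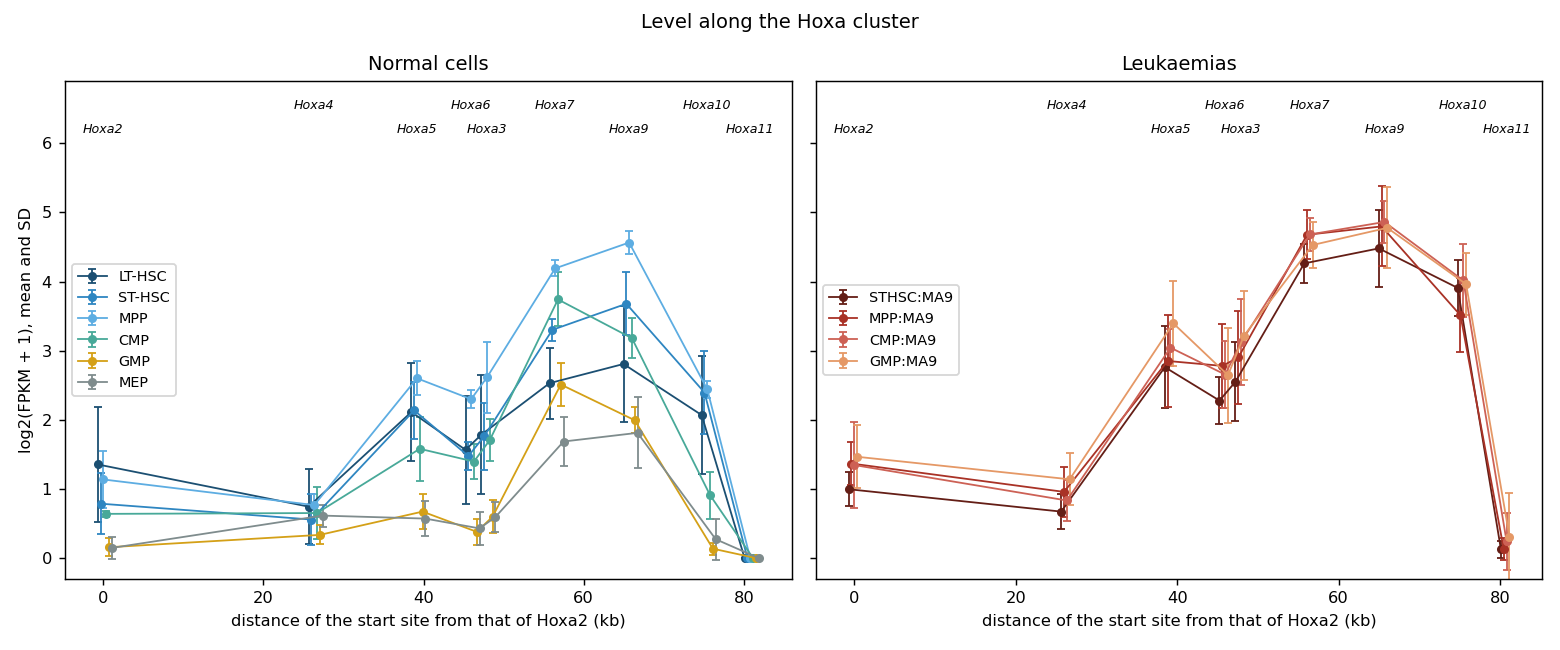
Mean log2(FPKM + 1) (y axis, bars are SD over samples) of the 9 Hoxa genes against the distance in kb of each gene's annotated start site from that of Hoxa2 (x axis), for the 6 normal groups (left) and the 4 leukaemia groups (right). The 6 normal groups spread widely between Hoxa5 and Hoxa10, whereas the 4 leukaemia groups lie close together along the whole cluster and peak at Hoxa9.

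Hoxa9 encodes the factor most often tied to self-renewal of myeloid progenitors. In MPP it was at 18.60 FPKM at the lowest, 23.4 at the median and 25.24 at the highest. The 5 ST-HSC samples held 16.79, 12.96, 11.92, 6.58 and 13.13 FPKM, and the 5 LT-HSC samples 6.43, 13.12, 7.30, 1.84 and 5.79 FPKM. All MPP samples lay above all ST-HSC samples, and ST-HSC overlapped LT-HSC. CMP samples were at 10.37, 7.91, 8.09, 9.06 and 5.61 FPKM. The GMP samples were at 3.97, 2.79, 2.76, 2.96 and 2.57 FPKM and the MEP samples at 2.56, 4.64, 1.42 and 2.12 FPKM, below every CMP sample. In the leukaemias Hoxa9 was at 14.50, 32.44 and 20.40 FPKM in STHSC:MA9 and at 25.17, 26.88, 23.60 and 38.77 FPKM in CMP:MA9. It ran from 17.46 over a median of 26.0 to 54.00 FPKM in MPP:MA9, and from 12.48 over a median of 28.3 to 41.37 FPKM in GMP:MA9. The leukaemia groups overlapped one another and, apart from CMP:MA9 with its lowest sample at 23.60, each reached below the lowest MPP sample.

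By mean log2(FPKM + 1), the order of the normal groups for Hoxa9 was MPP, ST-HSC, CMP, LT-HSC, GMP and MEP. Of the neighbours in that order, MPP stood 0.89 above ST-HSC on the log2(FPKM + 1) scale (adjusted p = 0.0189 by limma, adjusted over all genes tested) and LT-HSC 0.81 above GMP (adjusted p = 0.0161). ST-HSC and CMP (0.50, adjusted p = 0.194), CMP and LT-HSC (0.37, adjusted p = 0.288) and GMP and MEP (0.18, adjusted p = 0.651) did not differ beyond their spread.

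Hoxa7, the neighbour of Hoxa9 on its 3′ side, had the smallest standard errors in every comparison between groups. It was at 4.50, 8.74, 5.60, 2.76 and 3.83 FPKM in LT-HSC, at 9.50, 8.80, 10.38, 8.13 and 7.70 in ST-HSC, and at 15.38 to 19.14 in MPP with a median of 17.2. In CMP it was at 15.57, 15.54, 12.26, 12.76 and 7.54 FPKM, in GMP at 4.63, 3.38, 5.88, 3.93 and 6.17, and in MEP at 3.48, 2.00, 1.49 and 2.20. Thus Hoxa7 stayed high in CMP, where Hoxa9 had dropped: the mean ratio of Hoxa7 to Hoxa9 went from 0.771 in the 6 MPP samples (SD 0.137) to 1.55 in the 5 CMP samples (SD 0.244). In the leukaemias Hoxa7 was at 16.76, 22.87 and 15.66 FPKM in STHSC:MA9 and at 21.82, 27.47, 20.74 and 29.63 in CMP:MA9. It ran from 19.16 to 38.07 FPKM in MPP:MA9 (median 22.5) and from 16.48 to 28.65 in GMP:MA9 (median 21.9). All MPP:MA9 samples lay above all MPP samples, the highest of which was at 19.14. Of the exon bases of Hoxa7, 20.4% are shared with 2700086A05Rik on the other strand. The libraries were not stated to keep strand, so reads of the 2 genes cannot be told apart there, and 2700086A05Rik was listed at 0.33 to 4.18 FPKM in normal samples and 1.61 to 9.81 in leukaemias.

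Hoxa10, a 5′ neighbour of Hoxa9 that acts in myeloid differentiation, was low in the committed cells. The GMP samples held 0.08, 0.00, 0.11, 0.13 and 0.18 FPKM and the MEP samples 0.60, 0.22, 0.09 and 0.00, close to the bottom of the scale. CMP samples were at 0.43, 0.74, 1.46, 1.34 and 0.63 FPKM. ST-HSC samples were at 7.12, 7.12, 3.81, 2.46 and 2.66 FPKM, LT-HSC samples at 2.84, 8.03, 2.41, 0.87 and 4.86, and MPP samples at 3.89 to 5.14 with a median of 4.29. The 3 stem cell and MPP groups overlapped, and all MPP and ST-HSC samples lay above all CMP samples. In the leukaemias Hoxa10 was at 10.07, 18.38 and 14.76 FPKM in STHSC:MA9 and at 10.01, 14.33, 14.08 and 25.84 in CMP:MA9. It ran from 6.47 to 18.83 FPKM in MPP:MA9 (median 10.3) and from 9.94 to 20.70 in GMP:MA9 (median 15.1). Each leukaemia group lay wholly above its own normal cell.

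Because Hoxa7, Hoxa9 and Hoxa10 carried most of the signal, their RefSeq promoter windows are shown here, from 250 bases before to 50 bases after the annotated start on the minus strand of GRCm38.p6. Capitals mark CG dinucleotides, the sites that the CXXC domain of MLL binds when they lack methylation. The Hoxa7 window is chr6:52218524-52218823, the Hoxa9 window chr6:52227321-52227620, and the Hoxa10 windows, for 2 annotated starts, chr6:52234890-52235189 and chr6:52240805-52241104.
Hoxa7: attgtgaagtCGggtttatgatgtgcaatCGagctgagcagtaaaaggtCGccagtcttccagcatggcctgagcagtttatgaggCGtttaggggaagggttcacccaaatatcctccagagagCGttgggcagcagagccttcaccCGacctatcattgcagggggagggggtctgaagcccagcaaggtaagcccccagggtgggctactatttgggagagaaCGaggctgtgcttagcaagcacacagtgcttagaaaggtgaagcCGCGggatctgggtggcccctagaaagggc
Hoxa9: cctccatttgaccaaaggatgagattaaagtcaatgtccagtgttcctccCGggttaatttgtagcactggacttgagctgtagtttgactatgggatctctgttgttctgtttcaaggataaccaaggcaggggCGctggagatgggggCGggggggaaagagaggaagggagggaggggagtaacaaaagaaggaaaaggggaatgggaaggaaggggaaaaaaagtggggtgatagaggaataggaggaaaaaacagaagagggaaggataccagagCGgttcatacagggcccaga
Hoxa10, inner start: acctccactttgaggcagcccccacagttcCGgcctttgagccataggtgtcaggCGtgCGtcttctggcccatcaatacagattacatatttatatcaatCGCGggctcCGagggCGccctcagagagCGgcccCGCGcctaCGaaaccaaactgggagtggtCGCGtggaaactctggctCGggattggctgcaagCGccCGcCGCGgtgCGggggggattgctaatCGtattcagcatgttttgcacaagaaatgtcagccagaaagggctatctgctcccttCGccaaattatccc
Hoxa10, outer start: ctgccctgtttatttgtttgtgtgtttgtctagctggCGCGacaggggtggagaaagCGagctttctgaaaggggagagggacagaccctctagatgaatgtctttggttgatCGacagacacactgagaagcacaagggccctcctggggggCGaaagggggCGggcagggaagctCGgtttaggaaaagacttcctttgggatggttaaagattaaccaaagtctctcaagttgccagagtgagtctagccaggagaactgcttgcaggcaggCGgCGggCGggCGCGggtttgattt
The windows held 9 CG dinucleotides at Hoxa7, 4 at Hoxa9, and 21 and 12 at the Hoxa10 starts, against a median of 7 over 32851 mouse promoter windows of the same length. Fewer CG were found in 31.4% of all windows for Hoxa9 and in 75.2% for the inner Hoxa10 start. RefSeq windows were matched for 8 of the 9 members, all except Hoxa4, and the 9 windows ranged from 4 CG at Hoxa9 to 29 at Hoxa5. The HOX-PBX motif TGATNNAT, searched on both strands, was found in 1 of the 9 windows (Hoxa2) and in 8.85% of all windows. The MEIS motif TGACAG, which shares no fixed letters beyond its first 3 with the HOX-PBX motif, was found in 2 of the 9 (Hoxa2 and Hoxa3) and in 19.2% of all windows. These matches are descriptions of letters in a short window.

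Hoxa5, Hoxa6 and Hoxa3, which lie on the 3′ side of Hoxa7, were at lower levels, each with its highest normal mean in MPP and its lowest in GMP and MEP. Hoxa5 (ENSMUSG00000038253, chr6:52151753-52154586), a regulator of progenitor lineage choice, was at 3.56 to 6.27 FPKM in MPP, 1.93 to 4.76 in ST-HSC, 0.26 to 0.90 in GMP and 0.26 to 0.85 in MEP. Over the 19 leukaemias its lowest value was 3.40 FPKM and its median 6.41 FPKM. Hoxa6 (ENSMUSG00000043219, chr6:52155430-52161355) was at 3.53 to 4.61 FPKM in MPP, 1.13 to 2.17 in CMP, 0.16 to 0.58 in GMP and 2.14 to 12.12 in leukaemias. Hoxa3 (ENSMUSG00000079560, chr6:52118509-52163335), a patterning gene of the hindbrain and pharyngeal arches, was at 3.60 to 10.95 FPKM in MPP, 1.60 to 2.96 in CMP, 0.21 to 0.75 in GMP and 2.81 to 14.24 in leukaemias. All GMP and MEP samples lay below all CMP and MPP samples for Hoxa3 and Hoxa6. Hoxa3 shares 25.0% of its exon bases with genes on the other strand, which cannot be told apart without strand.

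The remaining members were low or silent. Hoxa2, the most 3′ member used here and a hindbrain patterning gene, was above 1 FPKM in 8 of 30 normal samples and 15 of 19 leukaemias, with a highest value of 5.51 FPKM in LT-HSC replicate 2. Hoxa4 (ENSMUSG00000000942, chr6:52139670-52141752) was between 0.00 and 1.61 FPKM in normal samples and between 0.42 and 1.96 in leukaemias. Hoxa11, a limb and kidney patterning gene, was above 0 in 11 of 19 leukaemias and above 1 FPKM in 1 of them, GMP:MA9 replicate 2 at 1.96 FPKM, with CMP:MA9 replicate 4 next at 0.81. Of its exon bases 38.6% are shared with the antisense gene Hoxa11as, which was listed at 0 in all normal samples and reached 1.20 FPKM in GMP:MA9. Neither Hoxa4 nor Hoxa11 reached the mean of 1 FPKM required for a gene to be tested, and Hoxa2 reached it in the fits that include leukaemias but not among normal cells, so 6 of the 9 members were tested among normal cells and 7 in the other comparisons. For a member that passed through high values in leukaemias, the filter favoured a difference from low normal groups, so the count over Hoxa2 carries no weight.

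**Figure D2:**
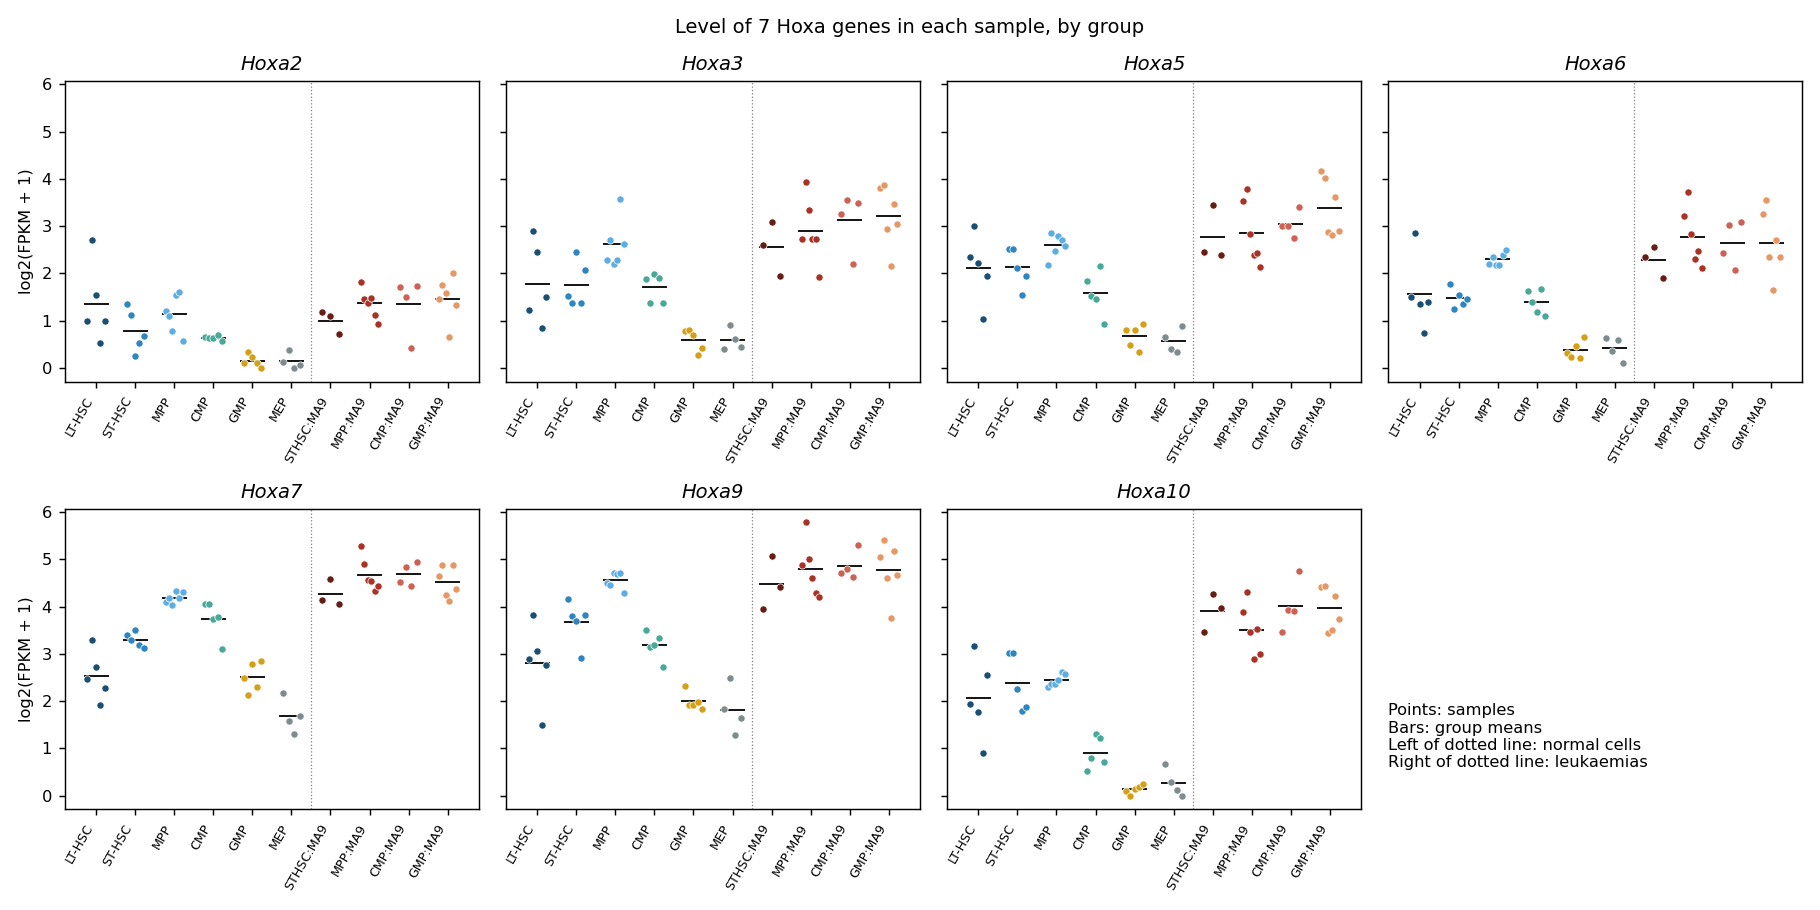
Level of 7 Hoxa genes as log2(FPKM + 1) (y axis) in every sample (points, n = 3 to 6 per group) with the group mean (bars), for the 6 normal groups and the 4 leukaemia groups (x axis). Among normal groups the MPP mean is the highest and the GMP and MEP means the lowest in the panels of Hoxa3, Hoxa5, Hoxa6, Hoxa7, Hoxa9 and Hoxa10, though for Hoxa7 GMP samples lie within the range of LT-HSC, and the leukaemia groups overlap one another.

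Among normal cells, all 6 members tested differed between groups (F test, adjusted p from 1.74e-10 for Hoxa7 to 4.86e-06 for Hoxa3), where 78.4% of all 12367 genes tested passed the same test. Between a pair of groups, a member was called where the adjusted p was under 0.05 and the log2 change exceeded 1 in size. From ST-HSC to MPP, 0 of 6 members were called (3.44% of all genes in either direction), although 4 had an unadjusted and an adjusted p below 0.05 by limma with changes of 0.82 to 0.89: Hoxa3, Hoxa6, Hoxa7 and Hoxa9. Hoxa10 differed by 0.05 (95% confidence interval -0.52 to 0.62). Calls over all genes were 263 higher and 162 lower, and 171 and 204 after median-ratio scaling. This scaling divides each sample by its median ratio to the geometric mean of all samples fitted, over genes never at 0. Without ST-HSC replicate 1 or 3, 1 member was called, Hoxa9 at 1.00 or Hoxa3 at 1.02. From LT-HSC to ST-HSC, 0 of 6 members were called (2.26% in either direction), and 2 passed both the unadjusted and the adjusted p by limma, Hoxa7 (0.77 ± 0.20, SE) and Hoxa9 (0.87 ± 0.28, SE). The same-numbered ST-HSC and LT-HSC samples deviated together, and in a fit of these 2 groups alone with the replicate number as a block, a fit chosen after seeing the data, the adjusted p was 0.137 for Hoxa7 and 0.124 for Hoxa9, and 0 of 7 members tested were called. Calls over all genes were 185 higher and 95 lower, and 113 and 138 after median-ratio scaling. Hoxa9 was called at 1.12 without LT-HSC replicate 2 and at 1.06 without ST-HSC replicate 4.

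From MPP to CMP, 3 of 6 members fell (2.83% of all genes called lower): Hoxa10 by 1.53 ± 0.28 (SE, adjusted p = 0.000322), Hoxa9 by 1.38 ± 0.26 (SE, adjusted p = 0.00055) and Hoxa5 by 1.02 ± 0.25 (SE, adjusted p = 0.00652) on the log2 scale. The call of Hoxa5 was lost without MPP replicate 2 (-0.97), 4 (-0.98) or 5 and without CMP replicate 3 (-0.99) or 5 (-0.86). The change of Hoxa7 was -0.45 with a 95% confidence interval from -0.85 to -0.05 (adjusted p = 0.124). From CMP to GMP, 4 of 6 were called lower (7.94%), with Hoxa7 at -1.23 ± 0.20 (SE, adjusted p = 2.33e-05) and Hoxa9 at -1.19 ± 0.28 (SE, adjusted p = 0.0012) ahead of Hoxa3 and Hoxa6. These changes lay close to the fold threshold. With median-ratio scaling 1 of the 4 was called, and with a correction for GC content and gene length 0 were, with Hoxa7 at -0.94 and Hoxa9 at -0.97. The median of all genes was -0.20 in that comparison and -0.01 after scaling, and calls over all genes went from 409 higher and 982 lower to 589 higher and 655 lower. From CMP to MEP, 4 of 6 were called lower (9.49%), led by Hoxa7 at -2.06 ± 0.22 (SE, adjusted p = 2.38e-08) and Hoxa9 at -1.37 ± 0.29 (SE, adjusted p = 0.000653), and 2 were with scaling or with the correction. Hoxa10, already low in CMP, was not called in either step, at -0.77 and -0.64, but was with a pseudocount of 0.1, at -2.31 (adjusted p = 0.000472) and -1.88 (adjusted p = 0.00653).

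Over the whole course, GMP and MEP stood far below MPP. All 6 members tested were lower in GMP than in MPP (12.0% of all genes called lower), from -1.68 ± 0.19 (SE) for Hoxa7 to -2.57 ± 0.26 (SE) for Hoxa9. Calls over all genes there were 472 higher and 1486 lower, and 649 and 1161 after scaling. All 6 were also lower in MEP than in MPP (16.1%), from -1.87 ± 0.24 (SE) for Hoxa6 to -2.75 ± 0.28 (SE) for Hoxa9. MEP and GMP were close: 0 of 6 members were called (20.5% in either direction), and 1 passed the unadjusted and the adjusted p by limma, Hoxa7 at 0.82 lower in MEP (adjusted p = 0.0023). Against ST-HSC, 5 of 6 were lower in GMP (9.77%), 6 of 6 in MEP (13.5%) and 1 of 6 in CMP (2.33%), Hoxa10 at -1.49 ± 0.29 (SE, adjusted p = 0.000748), where calls over all genes were 240 higher and 288 lower and 115 and 367 after scaling.

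Counts against LT-HSC moved with 1 library. LT-HSC replicate 2 was the highest and replicate 4 the lowest of its group for all 7 of the members other than Hoxa4 and Hoxa11, so that Hoxa9 spanned 1.84 to 13.12 FPKM. Against LT-HSC, 2 of 6 members were higher in MPP (6.19%), Hoxa7 and Hoxa9, and 4 were without replicate 2. In CMP, 1 was higher and 1 lower (8.29% called in either direction), Hoxa7 at 1.21 and Hoxa10 at -1.16. Hoxa10 was at -0.88 and not called without replicate 2, and Hoxa7 was at 0.92 and not called without LT-HSC and ST-HSC replicates 4 and 5. In GMP 4 of 6 (10.2%) and in MEP 4 of 6 (10.4%) were lower, and 2 in each without replicate 2. Without LT-HSC and ST-HSC replicates 4 and 5, Hoxa9 was also called lower in GMP (-1.26, adjusted p = 4.72e-05), and Hoxa9 (-1.44, adjusted p = 3.77e-05) and Hoxa7 (-1.14, adjusted p = 0.000272) were in MEP. Scaling moved the splits over all genes against LT-HSC from 766 higher and 367 lower to 429 and 528 in MPP, from 648 and 377 to 251 and 559 in CMP, and from 1046 and 1284 to 722 and 1504 in MEP.

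The comparison of each leukaemia with the normal cell it started from asks how the level of the cluster differs between them. In GMP:MA9 against GMP, all 7 members tested rose, where 13.5% of the 12600 genes tested were called higher. Hoxa10 rose by 3.83 ± 0.25 on the log2(FPKM + 1) scale (SE, adjusted p = 5.37e-15), Hoxa9 by 2.78 ± 0.25 (SE, adjusted p = 1.79e-11) and Hoxa7 by 2.02 ± 0.17 (SE, adjusted p = 5.96e-12). Hoxa5 (2.72), Hoxa3 (2.62), Hoxa6 (2.27) and Hoxa2 (1.31) also rose. Hoxa2 entered the fit through its leukaemia values, so it carries no weight in the count of 7 or in the median. The median change of the 7 members was 2.62 against 0.00 for all genes. Every GMP:MA9 sample lay above every GMP sample for each of these genes, a description only, since the share of all genes separated in this way was not counted. In FPKM, the mean of Hoxa9 went from 3.01 ± 0.554 (SD, n = 5) to 28.2 ± 10.2 (SD, n = 6).

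In CMP:MA9 against CMP, 5 of 7 members rose (13.0% of all genes called higher). Hoxa10 rose by 3.11 ± 0.27 (SE, adjusted p = 7.05e-12) and Hoxa9 by 1.68 ± 0.27 (SE, adjusted p = 2.58e-06), and Hoxa5 (1.46), Hoxa3 (1.42) and Hoxa6 (1.26) rose as well. Hoxa7, which was already high in CMP, changed by 0.94 (95% confidence interval 0.56 to 1.32, adjusted p = 6.56e-05), short of the fold threshold. The median of all genes was -0.16 in this comparison and -0.01 after median-ratio scaling, under which Hoxa7 was also called at 1.10. Calls over all genes then went from 1641 higher and 1867 lower to 1923 higher and 1436 lower.

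In MPP:MA9 against MPP, 1 of 7 members rose (13.5%): Hoxa10, by 1.07 ± 0.24 (SE, adjusted p = 0.000171). That value sat at the threshold. It was 1.00 without MPP:MA9 replicate 1 and 0.91 without replicate 2, and was then not called. For Hoxa9 the change was 0.23 (95% confidence interval -0.24 to 0.71), so that a doubling or more of FPKM + 1 lies outside the interval. Hoxa7 changed by 0.49 (95% confidence interval 0.16 to 0.82, adjusted p = 0.00992).

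In STHSC:MA9 against ST-HSC, 1 of 7 members rose (12.3%), again Hoxa10, by 1.51 ± 0.30 (SE, adjusted p = 6.32e-05). Hoxa7 (0.96), Hoxa6 (0.80) and Hoxa9 (0.80) passed the adjusted p at 0.000201, 0.0275 and 0.0251 but not the fold threshold. The intervals of Hoxa9 (0.20 to 1.41), Hoxa3 (0.03 to 1.55) and Hoxa5 (-0.05 to 1.30) were wide with 3 leukaemias. The number called was 3 with a pseudocount of 0.1 or without STHSC:MA9 replicate 1 or 3, and 2 without ST-HSC replicate 3.

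**Figure D3:**
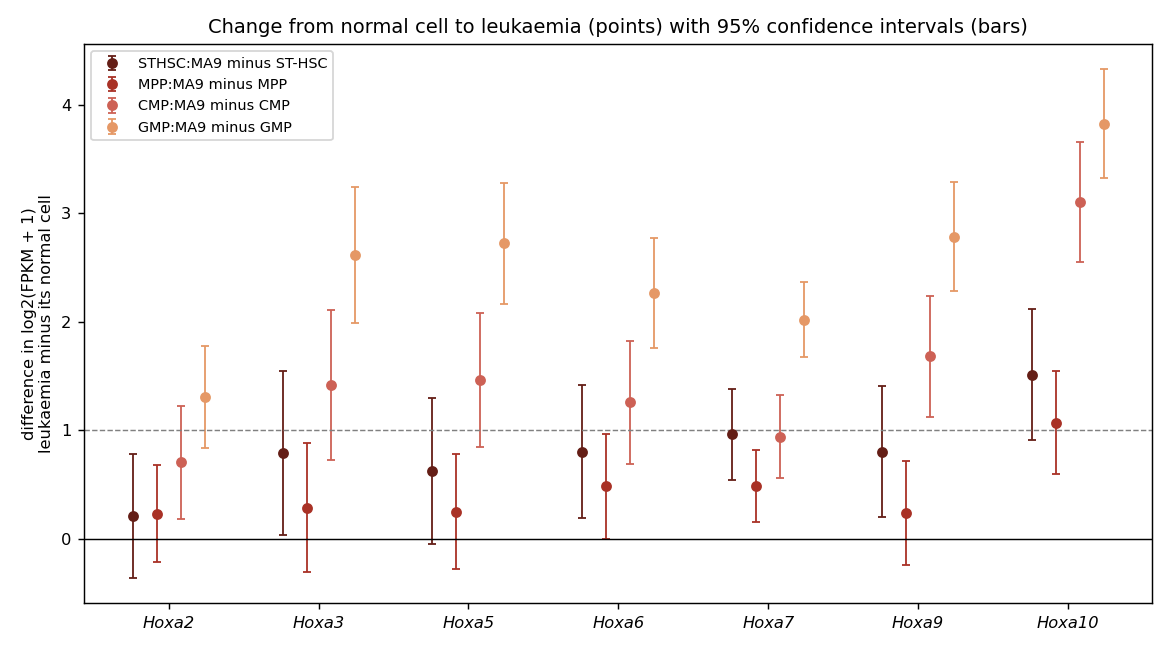
Difference in log2(FPKM + 1) between each leukaemia and its own normal cell (y axis) for 7 Hoxa genes (x axis), with points for the fitted difference and bars for the 95% confidence interval from limma; the dashed line marks 1. For each gene the GMP:MA9 point is the highest, and Hoxa10 is the gene with the highest point in all 4 origins.

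The size of the change differed with origin for all 7 members tested (F test of the 4 leukaemia-minus-normal differences, adjusted p from 1.31e-07 for Hoxa10 to 0.0233 for Hoxa2), where 38.0% of all genes passed that test. Hoxa2 entered the fit through its leukaemia values, so its p carries no weight. The leukaemias themselves did not separate by origin in the way these changes did. Between pairs of leukaemia groups, 0 of 7 members were called in any of the 6 comparisons, and 0 had an unadjusted p below 0.05 by limma. Over all genes the share called was 2.88% for MPP:MA9 against STHSC:MA9, 0.363% for CMP:MA9 against STHSC:MA9, 0.536% for GMP:MA9 against STHSC:MA9, 0.115% for CMP:MA9 against MPP:MA9, 2.23% for GMP:MA9 against MPP:MA9 and 0.206% for GMP:MA9 against CMP:MA9. In the F test over the 4 groups 0 of 7 members passed at the adjusted or the unadjusted p (13.3% of 12128 genes passed the adjusted p), with adjusted p from 0.42 for Hoxa7 to 0.831 for Hoxa9. The intervals do not show equality: for Hoxa9, GMP:MA9 minus STHSC:MA9 was 0.30 (95% confidence interval -0.43 to 1.03) and GMP:MA9 minus MPP:MA9 was -0.02 (-0.62 to 0.58). For Hoxa10, MPP:MA9 minus STHSC:MA9 was -0.40 (-1.08 to 0.28). For Hoxa7, the gene with the smallest spread, GMP:MA9 minus CMP:MA9 was -0.15 (-0.56 to 0.26). The highest upper limits were those of Hoxa3 against STHSC:MA9, at 1.54 for GMP:MA9 and 1.52 for CMP:MA9. Scaling moved the splits over all genes from 299 higher and 50 lower to 216 and 71 for MPP:MA9 against STHSC:MA9, from 24 and 20 to 16 and 23 for CMP:MA9 against STHSC:MA9, and from 101 and 169 to 112 and 119 for GMP:MA9 against MPP:MA9.

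GMP:MA9 was also set beside normal cells that it did not come from. Against ST-HSC, 6 of 7 members were higher (13.1% of all genes called higher), among them Hoxa10 (1.57 ± 0.25, SE), Hoxa7 (1.23 ± 0.17, SE) and Hoxa9 (1.10 ± 0.25, SE). The call of Hoxa9 was lost without ST-HSC replicate 4 (0.91), without GMP:MA9 replicate 2 (0.97) and without ST-HSC replicates 4 and 5 (0.89). Without GMP:MA9 replicate 2 that of Hoxa6 was lost too (0.99), which left 4 of 7. Against MPP, 1 of 7 members was higher (12.6%), Hoxa10 at 1.52 ± 0.24 (SE, adjusted p = 8.24e-07), and Hoxa9 differed by 0.21 (95% confidence interval -0.27 to 0.69). These comparisons share the GMP:MA9 samples with the one against GMP.

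The balance between Hoxa10 and Hoxa9 was looked at after their values had been seen, and is given as a description with no test. The ratio of Hoxa10 to Hoxa9 FPKM was 0.539 ± 0.196 (SD, n = 5) in LT-HSC. ST-HSC had a mean of 0.374 with an SD of 0.128 over 5 samples, and MPP one of 0.198 with an SD of 0.0358 over 6. Among committed cells the mean was 0.115 ± 0.0530 (SD, n = 5) in CMP, 0.0348 ± 0.0263 (SD, n = 5) in GMP and 0.0863 ± 0.102 (SD, n = 4) in MEP. It was 0.662 ± 0.0835 (SD, n = 3) in STHSC:MA9, 0.398 ± 0.109 (SD, n = 6) in MPP:MA9, 0.548 ± 0.114 (SD, n = 4) in CMP:MA9 and 0.565 ± 0.143 (SD, n = 6) in GMP:MA9. Every leukaemia had a higher ratio than every MPP, CMP, GMP and MEP sample, the lowest leukaemia being at 0.277 and the highest of those normal samples at 0.265. The leukaemias overlapped LT-HSC and ST-HSC in this ratio.

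**Figure D4:**
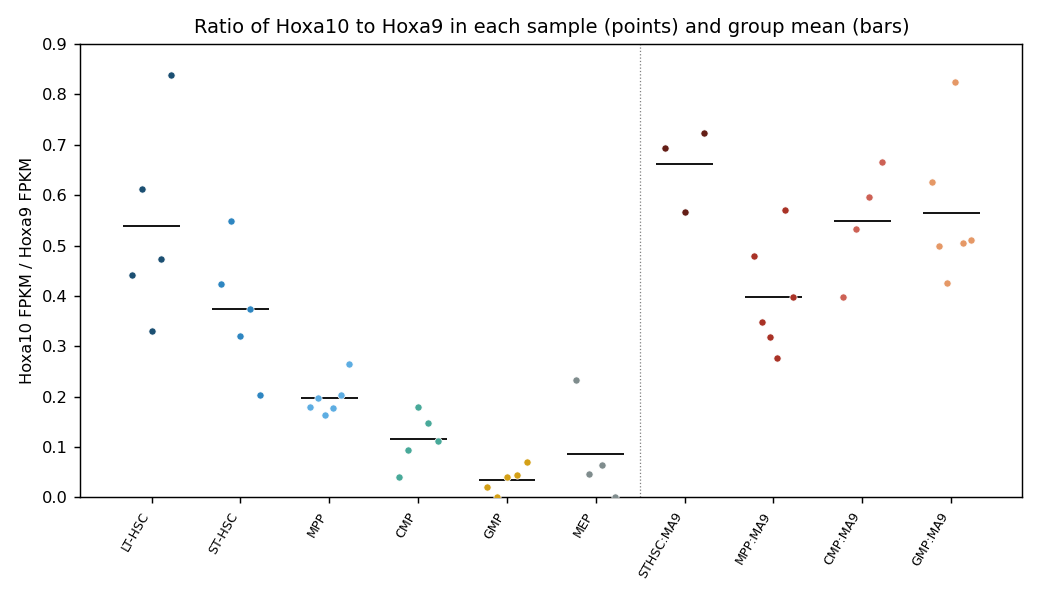
Ratio of Hoxa10 FPKM to Hoxa9 FPKM (y axis, starting at 0) in every sample (points) with the group mean (bars), for 6 normal and 4 leukaemia groups (x axis). The ratio is 0.539 on average in LT-HSC and 0.0348 in GMP, and it lies between 0.277 and 0.825 in all 19 leukaemias.

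Within groups the members varied together. Over the 21 pairs of 7 members, the Pearson correlation of deviations from the group mean in log2(FPKM + 1) had a median of 0.79 in the 19 leukaemias (range 0.35 to 0.90) and 0.63 in the 30 normal samples (range 0.36 to 0.75). The samples share a library and depth for all genes, so these are descriptions. In GMP:MA9, replicate 4 was the lowest for 6 of the 7 members and replicate 2 the highest for 5. In MPP:MA9, replicate 6 was the lowest for 5 and replicate 2 the highest for 5, and in CMP:MA9 replicate 3 was the lowest and replicate 4 the highest for 6 each. The named samples thus stood lowest or highest of their group for most of the 7 members, with Hoxa9 at 12.48 and 41.37 FPKM in the GMP:MA9 samples just named.

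The genes most like Hoxa9 were sought by Spearman correlation of FPKM over the 49 samples among 12149 genes with a symbol, other than the members, whose mean reached 1 FPKM. Among the members themselves, Hoxa7 (0.933), Hoxa6 (0.921), Hoxa3 (0.918) and Hoxa5 (0.911) were closest, and Hoxa10 was at 0.875. Among the genes that are not members the 5 closest were Eya1 (0.903), a transcriptional coactivator with a phosphatase domain, Runx2 (0.883), a runt-domain transcription factor, Ptpre (0.863), a tyrosine phosphatase, 5730596B20Rik (0.849) and Ikzf2 (0.848), which encodes Helios. The gene 5730596B20Rik lies within the cluster on the other strand and shares exon bases with Hoxa3. The 5 most opposed were Slc16a1 (-0.851), a lactate transporter, Pnp (-0.839), a purine nucleoside phosphorylase, 1110020G09Rik (-0.825), Abcb10 (-0.822), a mitochondrial transporter of red cell precursors, and 1700037H04Rik (-0.817). These values mix differences between normal cells with the step to leukaemia. In the 30 normal samples alone Eya1 was at 0.883 and rank 85, and the closest genes were Eltd1 (0.943), Etv6 (0.940) and Dnmt3b (0.930).

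The partners of HOX proteins did not share a direction. In GMP:MA9 against GMP, Pbx3, which encodes a homeodomain partner of HOX proteins, was higher by 3.05 ± 0.42 (SE) and Meis1, the cofactor named above, by 2.65 ± 0.27 (SE), whereas Pbx4 was lower at -1.39 ± 0.30 (SE). Pbx4 was lower in the other 3 leukaemias too, at -2.14 in STHSC:MA9, -2.59 in MPP:MA9 and -2.82 in CMP:MA9. Pbx3 was higher in MPP:MA9 (2.61) and CMP:MA9 (2.07) as well, and no cofactor was called higher in STHSC:MA9 against ST-HSC.

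The genes of the MLL and DOT1L complexes, 15 of 15 tested, had median changes of -0.28 in STHSC:MA9, -0.21 in MPP:MA9, -0.32 in CMP:MA9 and -0.23 in GMP:MA9, against -0.04, -0.09, -0.16 and 0.00 for all genes. In GMP:MA9 against GMP, 2 of 15 were called higher, near the share over all genes (13.5%). They were Mllt3 (3.10 ± 0.41, SE), the mouse gene of AF9, and Mll1 (2.43 ± 0.30, SE). Called lower was 1 (1117 of all 12600 genes tested), Dpy30 (-1.42 ± 0.19, SE). Mllt3 was also higher in MPP:MA9 (1.48 ± 0.39, SE). Whether reads of the fusion were counted to Mll1 or Mllt3 was not tested. In the other leukaemias, 2 of 15 were called lower in STHSC:MA9 (1494 of all genes), 2 in MPP:MA9 (1711) and 4 in CMP:MA9 (1867). The numbers called higher were 0, 1 and 0 (1551, 1701 and 1641 of all genes). Psip1, which encodes the chromatin tether LEDGF, was lower in STHSC:MA9 (-1.61), MPP:MA9 (-1.68) and CMP:MA9 (-1.88). Men1 was also lower in STHSC:MA9 (-1.03) and CMP:MA9 (-1.18), Dpy30 in MPP:MA9 (-1.05) and CMP:MA9 (-1.12), and Mllt1 in CMP:MA9 (-1.15).

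Of 20 Polycomb and Cdx genes, which repress or induce Hox genes in development, 17 were tested and the 3 Cdx genes were too low. Called lower were 4 in STHSC:MA9 (1494 of all 12600 genes tested), 5 in MPP:MA9 (1711), 5 in CMP:MA9 (1867) and 1 in GMP:MA9 (1117). Called higher were 1 in STHSC:MA9 (1551), 0 in MPP:MA9 (1701), 0 in CMP:MA9 (1641) and 2 in GMP:MA9 (1703). The list medians were -0.11, -0.14, -0.28 and 0.09. Cbx6 was lower in all 4 (-2.42, -2.33, -1.94 and -1.13). Cbx2, a subunit of Polycomb repressive complex 1, was lower in STHSC:MA9 (-1.46), MPP:MA9 (-2.25) and CMP:MA9 (-1.73). Phc1, of the same complex, was lower in STHSC:MA9 (-2.37) and MPP:MA9 (-2.05), and in CMP:MA9 with an adjusted p of 5.83e-09. Pcgf2 was called lower in all 3 as well and Ezh2 in MPP:MA9 (-1.14) and CMP:MA9 (-1.27). The genes higher in GMP:MA9 were Cbx7 (1.15) and Kdm6b (1.29), a demethylase that removes the Polycomb mark. The other Hox clusters were near silent: of 27 Hoxb, Hoxc and Hoxd genes, 1 was tested in these fits, Hoxb4, and it was called in 0 of the 4 comparisons (-0.26, -0.36, -0.25 and -0.27).

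Genes beside the cluster gave a local background. Hoxa13, at the 5′ end, did not pass 0.03 FPKM, and Evx1 beyond it was listed at 0 in every sample. Of the 8 genes listed beside the cluster, 5 were tested. In GMP:MA9 against GMP, 1 of the 5 was called, Jazf1 (1.14 ± 0.18, SE), where 2820 of all 12600 genes tested were called in either direction. Skap2, a signalling adaptor gene on the 3′ side, was higher in STHSC:MA9 (1.48 ± 0.20, SE), MPP:MA9 (1.08 ± 0.16, SE) and CMP:MA9 (1.68 ± 0.18, SE) than in their normal cells, and was at 102 ± 9.04 FPKM in GMP (SD, n = 5) and 200 ± 42.2 FPKM in GMP:MA9 (SD, n = 6). In GMP:MA9 against GMP its change was 0.94 ± 0.17 (SE, adjusted p = 1.09e-05 by limma), short of the fold threshold. Hibadh, on the 5′ side, was called lower in MPP:MA9 (-1.18 ± 0.13, SE). In STHSC:MA9 (-0.53), CMP:MA9 (-0.86) and GMP:MA9 (-0.54) it passed the adjusted p by limma but not the fold threshold. The changes of flanking genes thus did not share a direction.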

How the data were processed

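Gene expression was measured by RNA sequencing of amplified cDNA. The authors deposited FPKM values rounded to 2 decimals for 38253 Ensembl genes, estimated with RSEM on mm9 as the submitters' processing notes name them, with versions not given. The table has 68 columns. The names of 49 tie them to a labelled sample, and the other 19 were left out. The study's own edgeR test on RSEM counts was not repeated, since counts were not used here. The study's methods state a minimum number of reads per sample. Low FPKM values did not give a relative depth for all samples, so the depth of each sample is unknown.

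Positions, GC content and exon lengths came from GENCODE M1 (NCBIM37), which held 33068 of the genes, and promoter windows from RefSeq (GRCm38.p6). Values were compared as log2(FPKM + 1), on which a change of a low gene is understated. A gene entered a fit when its mean there reached 1 FPKM, and limma 3.58.1 in R 4.3.3 was used (eBayes with trend, two-sided, Benjamini-Hochberg over all genes tested). Normal groups, leukaemia groups, and leukaemias with their 4 normal groups were fitted separately, each group pair as a contrast. Calls were set at an adjusted p under 0.05 with a log2 change over 1 in size. The functions were tested on simulated data.

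The study's figure legends say that each sample came from an individual mouse, with data from 2 experiments, and the labels give neither. Whether samples of different groups shared a mouse is not stated. The p-values set differences between groups against the spread between these samples within their groups. No 2 samples were identical. Replicate numbers were treated as pairs for ST-HSC and LT-HSC alone, where the deviations of all 5 same-numbered pairs correlated above 0.1 (mean 0.288, 0.142 to 0.683). The named genes are all 9 members, the 5 genes most and 5 least like Hoxa9, and up to 4 called genes of each list with the largest change. The members, the lists (HOX cofactors, MLL and DOT1L complexes, Polycomb and Cdx, other Hox genes, genes beside the cluster, sort and cell type markers) and the tests were chosen with earlier results of these data known. Alternatives were another pseudocount, no filter, median-ratio scaling, only the groups compared, a replicate block, a GC and length correction, no fold threshold and leaving out samples. The fit of ST-HSC and LT-HSC alone with the block was added after seeing the data. Results of some listed genes are not reported here.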

Additional observations from a re-analysis of the deposited data

Results flagged for a closer look

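For each member tested, the step into leukaemia was unequal among the 4 origins, by an F test of the difference itself in limma, which 38.0% of all 12600 genes also passed. The adjusted p was 0.0233 for Hoxa2, 0.000369 for Hoxa3, 2.11e-05 for Hoxa5, 0.000758 for Hoxa6, 3.34e-05 for Hoxa7, 2.09e-06 for Hoxa9 and 1.31e-07 for Hoxa10. Hoxa2 entered the fit through its leukaemia values, so its p carries no weight.

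In 5 of 75 gene and group combinations, 1 sample lay far from the rest of its group by Dixon's test at the 95% level, which flags about 1 in 20 by chance. Hoxa3 was at 10.95 FPKM in MPP replicate 5, with the next sample at 5.49. Hoxa6 was at 6.20 FPKM in LT-HSC replicate 2, with the next at 1.83, and that library was the highest of its group for 7 members. Hoxa9 was at 3.97 FPKM in GMP replicate 1, with the next at 2.96. Hoxa11 was at 0.81 FPKM in CMP:MA9 replicate 4 and at 1.96 FPKM in GMP:MA9 replicate 2, with the next samples at 0.04 and 0.23.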

How the results depend on the processing

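The number of members called was recomputed 607 times over all comparisons and alternatives, and 570 of these counts stayed within 1.5 times the reported one. Of 3198 recomputed member changes, 0 called changes took another sign, and 115 that were called in neither fit did. The cause of the following differences was not tested. With a pseudocount of 0.1, 4 members were called in MPP against LT-HSC, 1 in MPP against ST-HSC, 1 in MEP against GMP and 3 in STHSC:MA9 against ST-HSC. With median-ratio scaling, 1 was called in CMP against LT-HSC, 1 in GMP against CMP and 2 in MEP against CMP. With only the groups compared, 1 was called in CMP against LT-HSC and 2 in MEP against LT-HSC. With the GC and length correction, with or without the replicate block, 1 was called in CMP against LT-HSC, 0 in GMP against CMP and 2 in MEP against CMP. Without a fold threshold, fewer criteria had to be met, and 2 were called in ST-HSC against LT-HSC, 4 in MPP against LT-HSC, 4 in MPP against ST-HSC, 5 in CMP against MPP, 1 in MEP against GMP, 4 in STHSC:MA9 against ST-HSC, 2 in MPP:MA9 against MPP and 2 in GMP:MA9 against MPP. Without LT-HSC and ST-HSC replicates 4 and 5, 1 was called in CMP against LT-HSC.

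Leaving out 1 sample gave 0 to 1 members called in ST-HSC against LT-HSC, 2 to 4 in MPP against LT-HSC, 1 to 2 in CMP against LT-HSC, 2 to 5 in GMP against LT-HSC, 2 to 6 in MEP against LT-HSC, 0 to 1 in MPP against ST-HSC (1 without ST-HSC replicate 1 or 3), 1 to 3 in STHSC:MA9 against ST-HSC and 0 to 1 in MPP:MA9 against MPP. GMP:MA9 against GMP kept a count of 7, Hoxa2 included, and the 6 pairs of leukaemias a count of 0.

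Over all genes, the F test among the 4 leukaemias passed 1616 genes, 942 with the replicate block, 264 with the GC and length correction and 51 with both. Pairs of leukaemias called 14 to 349 genes, 3 to 35 in 4 of them whose counts moved by over 1.5 times with the block, 5 to 79 in 5 of them with the correction, 3 to 34 in 3 of them with only the groups compared, and 2 to 55 with both. CMP:MA9 against MPP:MA9 called 5 genes with a pseudocount of 0.1. ST-HSC against LT-HSC called 280 genes, 40 with only these groups, 77 with the block added to that (chosen after seeing the data) and 552 without replicates 4 and 5. MPP against ST-HSC went from 425 to 276 with the correction and block, and CMP against ST-HSC from 528 to 795 without those replicates. Outside ST-HSC against LT-HSC, the correlations of same-numbered samples were not all above 0.1. Their mean was at most 0.171, in MEP against LT-HSC (0.093 to 0.352). Whether such samples shared a mouse or a batch was not tested. With the replicate block, members called in GMP:MA9 against GMP stayed at 7 (Hoxa2 included), in CMP:MA9 against CMP at 5 and in MEP against LT-HSC went from 4 to 5. Among the 10 genes named for likeness to Hoxa9, the correlation moved by up to 0.149 in the 30 normal samples alone. The depth of each sample is unknown beyond the minimum that the study states, so low values such as those of Hoxa10 in GMP carry an unknown counting error.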
